A study of Arabidopsis thaliana with 12 samples.

Results

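DOG1 (DELAY OF GERMINATION 1, AT5G45830) and its relatives DOGL1 (AT4G18660), DOGL2 (AT4G18680), DOGL3 (AT4G18690) and DOGL4 (AT4G18650) were taken by TAIR10 locus identifier, 5 genes of the 27444 protein-coding genes on the 5 nuclear chromosomes of Arabidopsis thaliana. All 5 carried H3K27me3 in wild-type seedlings. In the val1val2 double mutant DOGL4 had no peak, DOG1 lacked the part of its peak that lay upstream of the gene, and DOGL1, DOGL2 and DOGL3 kept a shorter peak. The highest VAL1 and VAL2 summits at DOG1 lay within 11 bp of each other, at or within 4 bp of overlapping copies of the RY core. They fell in the stretch that was under a called peak in wild type and under no called peak in val1val2.

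DOG1 is the main known quantitative regulator of seed dormancy in Arabidopsis. Its protein binds the clade A protein phosphatases AHG1 and AHG3, which restrain the response to abscisic acid. The related DOGL genes are less well understood, and the annotation describes DOGL4 as an imprinted gene expressed from the maternal copy. VAL1 and VAL2 are B3-domain repressors that recognise the RY element, a sequence whose core is TGCATG on one strand and therefore CATGCA on the complementary one, and they are known for holding the seed programme silent after germination. H3K27me3, the trimethylated form of a lysine on histone H3, is written by Polycomb repressive complex 2 and marks silent genes.

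The samples were whole Col-0 seedlings, 14 days old, grown on Murashige and Skoog plates under 16 h of light and 8 h of darkness at 22 °C. Chromatin immunoprecipitation followed by sequencing was done for H3K27me3 in wild type and in val1val2, with 2 libraries each. It was also done for the tagged protein in VAL1-GFP in the val1 mutant (2 lists) and VAL2-GFP in the val2 mutant. For the 2 VAL2-GFP samples only 1 list was available. Each of these 4 genotypes also had 1 input, which entered no comparison. The val1 and val2 alleles, the promoter and the number of lines behind each GFP fusion, and the number of plants per sample are not stated in the labels or series text.

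The 4 H3K27me3 lists held 8324 to 10024 peaks and the 3 GFP lists 21580 to 34554 summits. No read totals came with them, so depth is unknown. Nothing in the labels says whether replicate libraries stem from different plants, and the spread between them, with the p-values that rest on it, may be technical. The lists hold no transcript levels, so neither the tissue nor the loss of VAL1 and VAL2 in the double mutant could be checked against them. In whole seedlings, a mark present in fewer cells and a weaker mark in every cell cannot be told apart.

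DOG1 lies on the minus strand at chr5:18589418-18591506 (TAIR10). Its highest VAL1 summits, at positions 18591903 and 18591900 in the 2 lists, lay 397 and 394 bp upstream of the annotated start site. The highest VAL2 summit, at 18591892, lay 386 bp upstream, and it fell directly on an RY core. The sequences shown here, from the TAIR10.1 reference, are 151 bases at VAL1 summits of other members, with the letters of the cores in capitals. DOGL4 held 3 overlapping cores that form the 10-base run CATGCATGCA, which is TGCATGCATG on the other strand, 81 to 90 bp upstream of its start site. It is shown at chr4:10265456-10265606 on the minus strand, the strand of DOGL4, together with the stretch at the highest VAL1 summits of that gene, chr4:10266159-10266309, which holds a single core.
DOGL4 near start: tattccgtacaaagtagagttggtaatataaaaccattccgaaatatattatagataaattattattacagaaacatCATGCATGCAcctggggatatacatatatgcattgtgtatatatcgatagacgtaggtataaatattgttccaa
DOGL4 upstream: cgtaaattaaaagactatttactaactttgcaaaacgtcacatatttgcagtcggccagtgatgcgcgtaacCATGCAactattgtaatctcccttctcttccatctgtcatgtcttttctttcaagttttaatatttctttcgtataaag
The stretch between the upstream neighbour and DOGL2, chr4:10280839-10280989 on the plus strand, is shown for contrast, since it also carries overlapping cores but lay inside the peak that remained in val1val2.
DOGL2 upstream: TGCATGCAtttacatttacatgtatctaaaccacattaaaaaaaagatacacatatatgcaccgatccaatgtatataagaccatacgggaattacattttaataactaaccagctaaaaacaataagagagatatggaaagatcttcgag

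The 10-base run is uncommon. It occurred 991 times on the 5 chromosomes, counting both strands and overlapping copies, and 183 of 27444 genes (0.667%) had it within 1 kb upstream of the start site, against 32.2% with at least 1 core there. Within 100 bp of a summit it was found at 1.88% and 1.24% of the summits of the 2 VAL1 lists and at 0.971% of those of the VAL2 list. Among the 100 summits of highest fold enrichment it was found at 36, 38 and 20 of them. The run was searched for after its presence at DOGL4 had been seen. A match describes the letters in a window and is not by itself a binding site.

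In wild type a single H3K27me3 peak ran from inside DOG1 across its start site and far upstream. It covered 18590146 to 18594360 in wild type replicate 1 and 18590092 to 18594286 in replicate 2, lengths of 4215 and 4195 bp, and it reached into the 3′ end of the upstream neighbour AT5G45840. In val1val2 the peaks covered 18590225 to 18591473 and 18590304 to 18591401, lengths of 1249 and 1098 bp. Both mutant peaks thus began inside the gene, 33 and 105 bp downstream of the start site, and ended inside it, so that the 3′ boundary stayed near its wild-type place while the upstream part was absent. DOG1 was the only member called shortened, meaning that both val1val2 lengths were at most 50% of the shorter wild-type length, a call that 6.58% of the 6884 genes with a peak in all 4 libraries received.

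**Figure D1:**
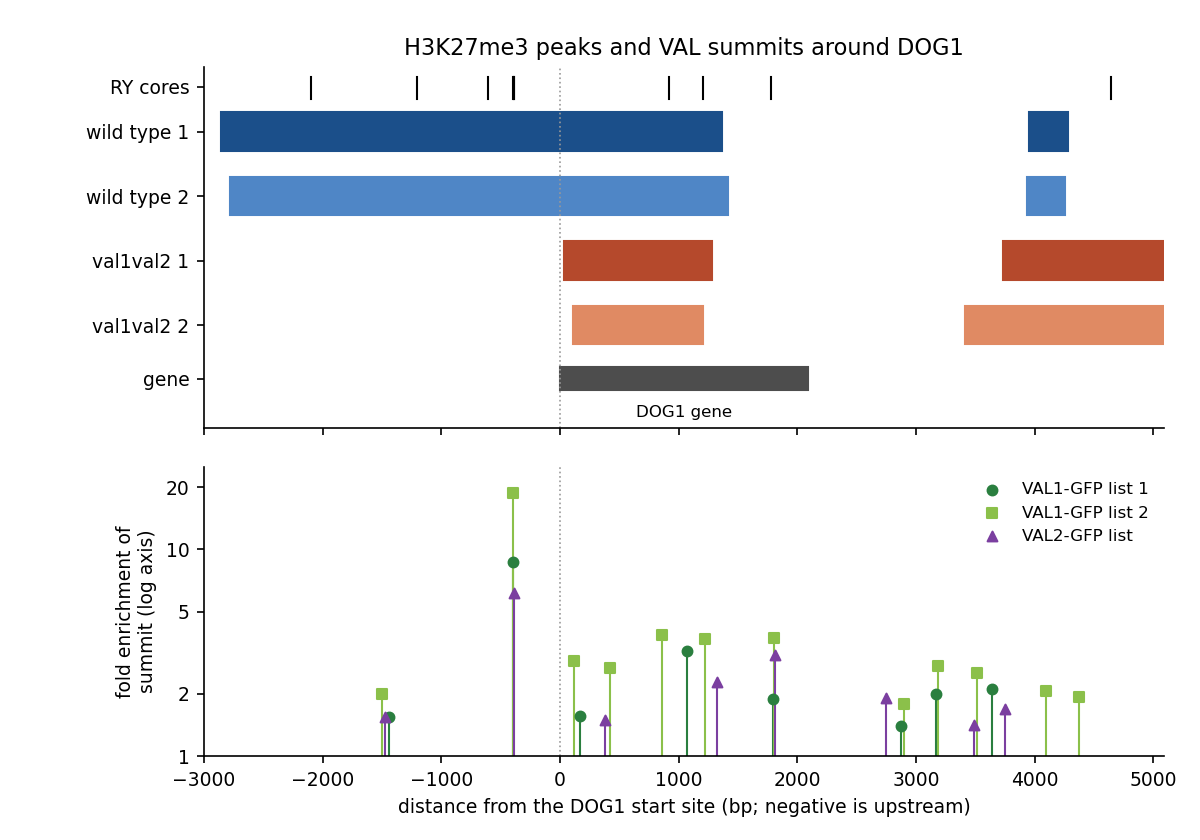
H3K27me3 peaks (bars, by library), RY cores (ticks), the gene and VAL summits (points, height is the authors' fold enrichment on a log axis) against the distance from the DOG1 start site in bp, within 3 kb to each side of the gene; the val1val2 peaks at the right edge run on beyond it. The wild-type peaks span the highest summits, 386 to 397 bp upstream, and the val1val2 peaks begin 33 and 105 bp downstream of the start site.

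Upstream of DOG1, the 3 kb next to the start site held 2854 and 2780 bp of peak in wild type and 0 bp in both val1val2 libraries. Inside the gene the covered length was 1361 and 1415 bp in wild type against 1249 and 1098 bp in val1val2. The gene's cover, the percentage of its length under a peak, was therefore 65.2% and 67.7% in wild type against 59.8% and 52.6% in val1val2, a difference of −10.3 percentage points. The groups did not overlap, yet the cover of the gene alone shows little of what was missing, since most of it lay outside the gene. An exact two-sided permutation test of 2 libraries against 2 gave p = 0.333, the smallest it can give, so no difference between the genotypes could pass a threshold in these lists. The −log10 q of the peak was 13.1 and 13.4 in wild type against 4.22 and 3.40 in val1val2, so with only peaks of at least 10 DOG1 had no val1val2 peak and the difference was −66.4 points. Without val1val2 replicate 2 it was −6.65 points.

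On the other side of DOG1, over the protein kinase gene CIPK20, the called peaks were broader in val1val2. A wild-type peak of 333 and 315 bp there stood against peaks of 2068 and 2483 bp in val1val2. Its fold enrichment was 1.35 and 1.36 in wild type against 1.95 and 1.85 in val1val2. Read coverage of the peak went the other way, with a pileup of 60.7 and 69.3 in wild type against 40.6 and 40.2 in val1val2. Cover of CIPK20 was 16.8% ± 0.662 in wild type and 55.5% ± 11.8 in val1val2, and that of the next gene, CIPK19, was 0 and 48.5% ± 3.43 (SD, n = 2). Both were called gained, that is marked over at least 20% of their length in each val1val2 list but under that limit in the 2 wild-type lists, as were 1763 of all 27444 genes. With more cover downstream and none upstream, the whole window of DOG1 was covered over 4548 and 4510 bp in wild type against 2607 and 2778 bp in val1val2, a difference of −1836.5 bp (exact permutation p = 0.333).

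At DOG1 the genotypes overlapped in fold enrichment and stood apart in pileup. Fold enrichment, the authors' own ratio of the peak's coverage to the local background, was 1.97 and 1.93 in wild type against 1.97 and 1.85 in val1val2. Pileup, the authors' read coverage of the peak, was 131 and 144 in wild type against 41.2 and 40.3 in val1val2. The quotient of the pair, which stands for the local background, was 66.7 and 75.0 in wild type, above the list medians of 31.0 and 34.0, and 20.9 and 21.7 in val1val2, below the medians of 27.9 and 29.1.

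No scaling of pileup between libraries is described, so DOG1 was set against another member of the same list. Relative to the peak on DOGL1, the pileup on DOG1 was 1.56 and 1.55 times as high in wild type and 0.655 and 0.707 times in val1val2. Relative to the peak shared by DOGL2 and DOGL3 it was 0.865 and 0.917 times in wild type and 0.386 and 0.376 times in val1val2. The pair DOGL2 and DOGL1 had ratios of 1.80, 1.69, 1.70 and 1.88 in the 4 libraries, with overlapping genotypes. The ratios show that coverage at DOG1 and at the other members differed unequally between the genotypes, and the peaks they compare have different widths. The ratios were computed after the pileups had been seen.

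**Figure D2:**
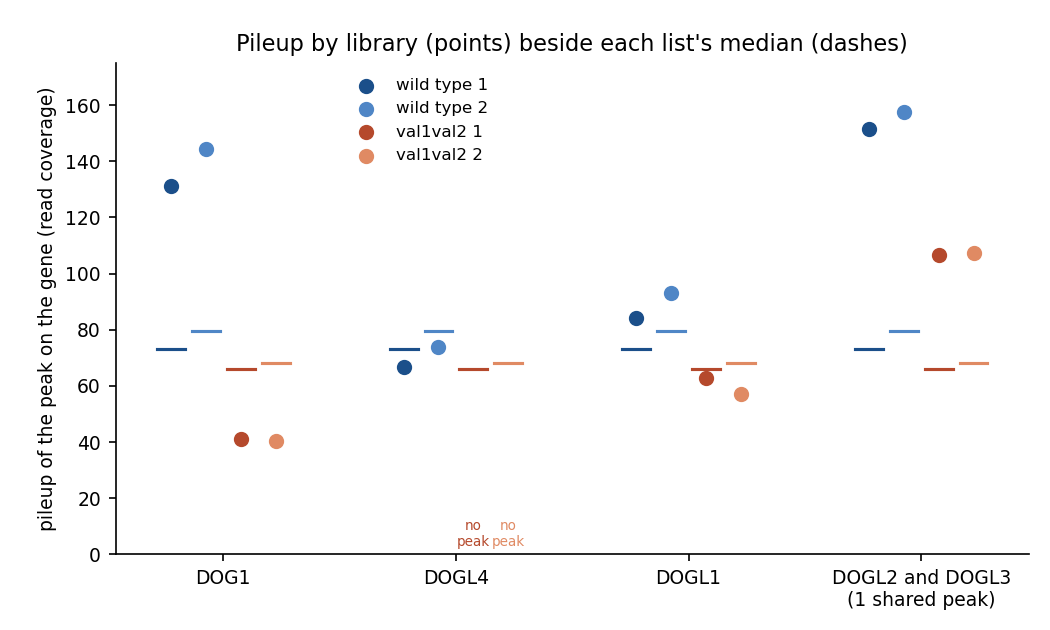
Pileup of the peak on each gene in each library (points, read coverage as the authors gave it) with the median pileup over all peaks of that library's list (dashes). DOG1 lies above the medians in wild type (131 and 144) and below them in val1val2 (41.2 and 40.3), and DOGL4 had no val1val2 peak.

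At DOG1 the VAL summits were among the highest of their lists. The fold enrichment was 8.72 in VAL1 list 1, rank 63 of 21580 summits, and 18.7 in VAL1 list 2, rank 43 of 34554. In the VAL2 list it was 6.17, rank 241 of 30493. These 3 summits lay 1746 to 1811 bp inside the nearest edge of the wild-type peaks and 419 to 502 bp outside the val1val2 peaks.

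Weaker summits followed along the gene and beyond it. In the window of 3 kb to each side there were 8, 12 and 8 summits in VAL1 list 1, VAL1 list 2 and the VAL2 list. The next highest in VAL1 list 1 lay in a coding exon, 1067 bp downstream of the start site, with a fold enrichment of 3.21. In VAL1 list 2 the next highest lay in a coding exon at 863 bp with 3.85. In the VAL2 list the next highest lay in a coding exon at 1810 bp with 3.09, and both VAL1 lists had a summit within 15 bp of it, at 1795 and 1805 bp. All 3 of those lay within 31 bp of the nearest base of a core near the end of the gene that was under no peak in wild type or in val1val2.

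Of the 10 cores in the DOG1 window, 8 lay in peaks of both wild-type libraries. Within the gene 2 overlapped peaks of both val1val2 libraries. The core at 18590299 to 18590304 did so in val1val2 replicate 2 only at base 18590304. A further core downstream lay in val1val2 peaks only. The density was 1.24 cores per kb against 0.497 per kb over the 5 chromosomes. DOGL4 had 9 cores (1.20 per kb), DOGL2 and DOGL3 had 7 each, of which they share all, and DOGL1 had 4 (0.541 per kb).

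DOGL1 to DOGL4 lie within 19.8 kb on chromosome 4, with DOGL4 and then DOGL1, DOGL2 and DOGL3 along the plus strand. DOGL4 (chr4:10263969-10265439, minus strand) was the member with no called val1val2 peak. Its wild-type peaks, 10264195 to 10266524 and 10264217 to 10266454, were 2330 and 2238 bp long and ran from inside the gene to 1085 and 1015 bp upstream of the start site. Their fold enrichments were 3.23 and 3.19, higher than at DOG1, and their −log10 q was 20.1 and 21.0. Their pileup, 66.6 and 74.0, was lower than the 131 and 144 of DOG1 in the same libraries. In both val1val2 libraries no peak lay on the gene or within 3 kb of it, so cover went from 84.6% and 83.1% to 0 and 0 (exact permutation p = 0.333). It was the only member called lost, meaning marked over at least 20% of its length in the 2 wild-type lists but under that limit in each val1val2 list, as were 7.92% of the 7023 genes marked in wild type.

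The VAL summits of DOGL4 were fewer and lower than those of DOG1 but also lay upstream of the start site. The highest were at 781 and 810 bp upstream in the 2 VAL1 lists, with fold enrichments of 2.69 and 6.05, and at 826 bp in the VAL2 list with 3.84. These 3 summits spanned 45 bp, and the single core 798 bp upstream lay 12, 12 and 28 bp from them, counted from the core's nearest base. A lower group stood at the 10-base run next to the start site, 99 and 85 bp upstream with folds of 2.31 and 4.30 in the VAL1 lists and 48 bp upstream with 2.72 in the VAL2 list. All 6 summits lay inside both wild-type peaks. The gene that follows DOGL4 downstream, MRH1, was lost as well, with a cover of 24.2% ± 2.11 in wild type and 7.59% ± 0.653 in val1val2 (SD, n = 2).

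**Figure D3:**
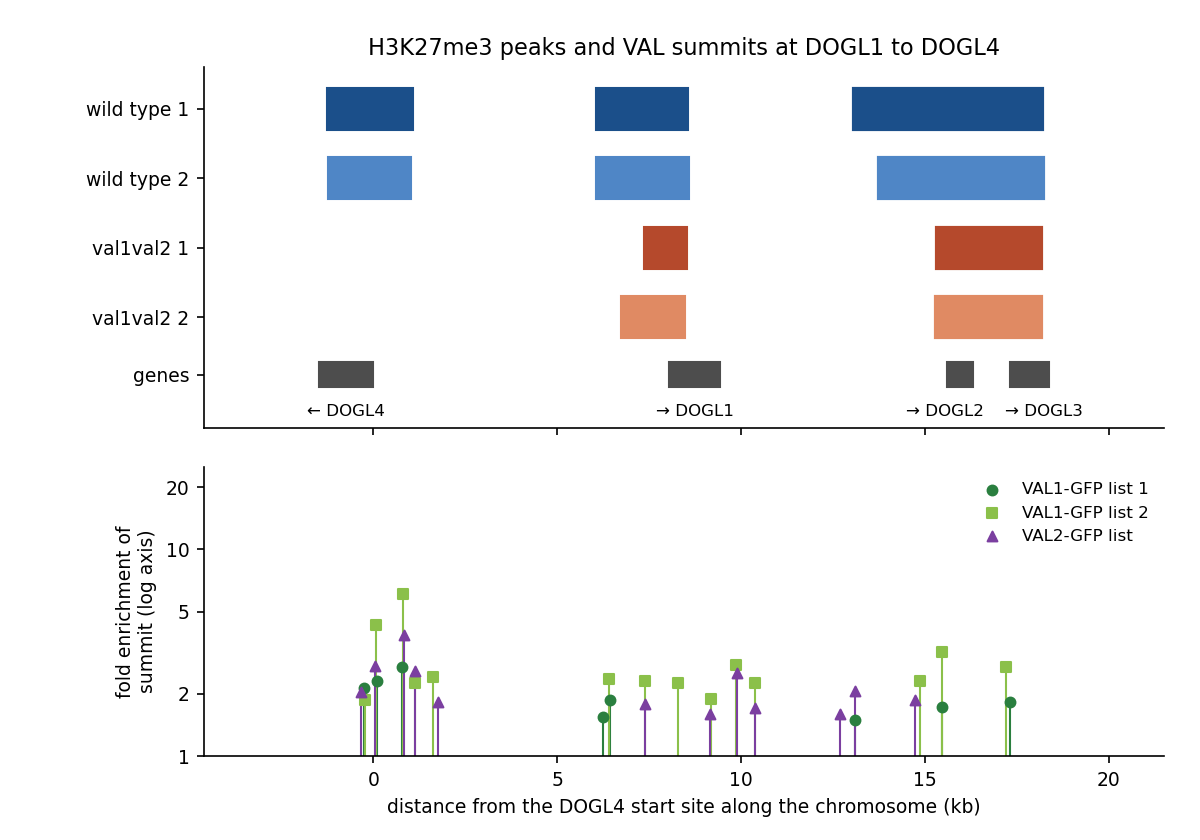
H3K27me3 peaks (bars, by library), the genes with their direction, and VAL summits (points, height is the authors' fold enrichment on a log axis) against the distance in kb from the DOGL4 start site along the chromosome; only peaks and summits within 3 kb of a member are drawn. The peak at DOGL4 is present in wild type only, and the peaks over DOGL1 and over DOGL2 with DOGL3 are shorter on their left, which is upstream of those genes, in val1val2.

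DOGL1 (chr4:10273480-10274872, plus strand) kept a peak over its 5′ part in all 4 libraries. The peak was 2497 and 2530 bp long in wild type and 1166 and 1739 bp in val1val2, with fold enrichments of 3.31, 3.38, 2.99 and 2.60. Its right edge lay between 441 and 552 bp inside the gene in every library. Its left edge lay 1973 and 1977 bp upstream of the start site in wild type but 676 and 1297 bp upstream in val1val2, so the missing part was upstream here too, and the mutant libraries differed from each other by more than the wild-type ones. Cover of the gene was 37.6% and 39.7% in wild type against 35.2% and 31.7% in val1val2, without overlap (exact permutation p = 0.333).

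The 3 VAL lists did not all have their highest summit of DOGL1 at the same place. It lay 1605 bp upstream in VAL1 list 1 (fold enrichment 1.87), and 1828 and 1841 bp downstream of the start site, beyond the gene's end, in VAL1 list 2 (2.76) and the VAL2 list (2.51). No summit of VAL1 list 1 lay between 1 kb upstream of the start site and the end of the gene.

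DOGL2 (chr4:10281033-10281740) and DOGL3 (chr4:10282762-10283803), both on the plus strand and 1021 bp apart, shared a single peak in each library. It was 5158 and 4509 bp long in wild type and 2898 and 2916 bp in val1val2. The right edge, near the end of DOGL3, lay at 10283652 and 10283676 in wild type and close by, at 10283632 and 10283628, in val1val2. The left edge lay 2538 and 1865 bp upstream of DOGL2 in wild type and 298 and 320 bp upstream in val1val2. The length in wild type replicate 1 exceeded that of replicate 2 by less than either exceeded the mutant lengths.

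DOGL2 stayed under the peak over its whole length in all 4 libraries. DOGL3 was covered over 85.5% and 87.8% in wild type against 83.6% and 83.2% in val1val2. Fold enrichment of the shared peak was 2.50 and 2.44 in wild type against 3.28 and 3.14 in val1val2, over peaks of different widths. Its pileup went the other way, 151 and 157 in wild type against 107 and 107 in val1val2. The quotient of pileup and fold enrichment was 60.5 and 64.4 in wild type against 32.5 and 34.2 in val1val2. A stronger mark in val1val2 can thus not be read from the fold enrichment. The overlapping cores 192 to 194 bp upstream of DOGL2 lay inside the peak in all 4 libraries, and VAL1 summits stood 122 and 119 bp upstream of that gene with fold enrichments of 1.73 and 3.18. The nearest VAL2 summit upstream of DOGL2 lay 863 bp from its start site. Stretches of 50 bases that occur again elsewhere in the genome made up 28.8% of the DOGL3 window, 8.14% of the DOGL2 window and 3.28% of the DOGL1 window, and none of any member gene itself, and their part in the values of those windows was not tested.

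**Figure D4:**
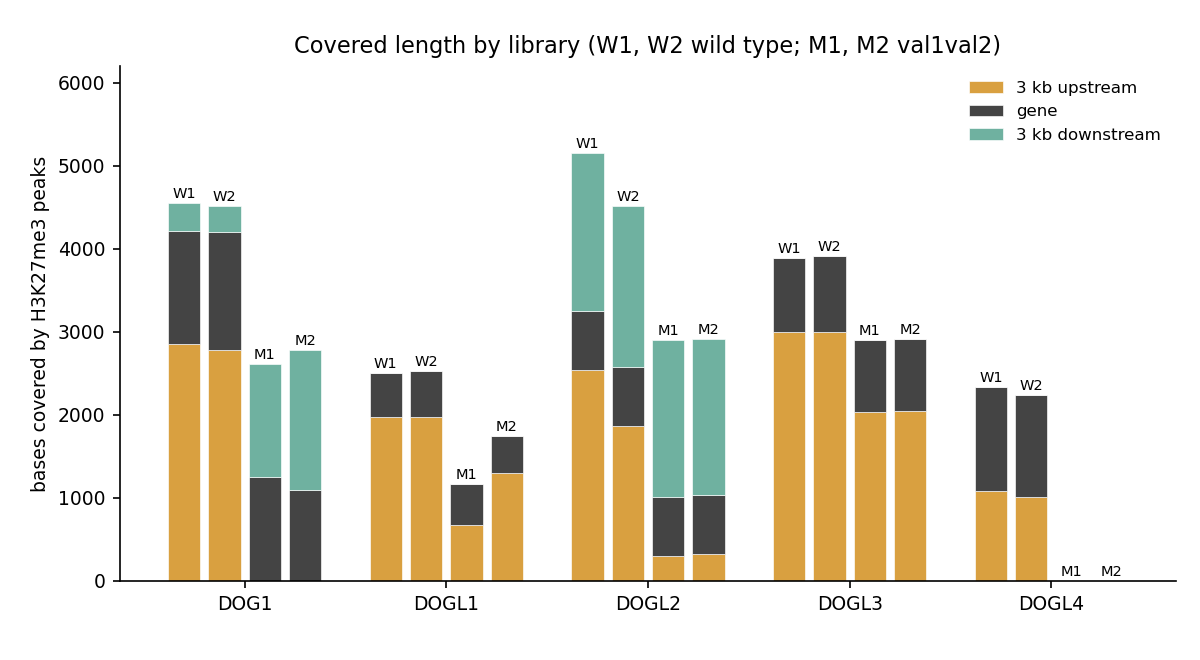
Bases covered by H3K27me3 peaks in each library (W1 and W2 wild type, M1 and M2 val1val2), stacked by the 3 kb upstream of the start site, the gene, and the 3 kb downstream of its end. The upstream part of DOG1 is 2854 and 2780 bp in wild type and 0 in val1val2, and its downstream part is larger in val1val2 (1358 and 1680 bp against 333 and 315 bp).

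Across the family, wild type carried the mark on all 5 genes in each library, against 25.6% of all genes, and 4 of 5 in both val1val2 libraries, against 30.4%. Cover was lower in both val1val2 libraries than in both wild-type ones for 4 of 5 members, all but DOGL2, against 30.1% of the 7655 genes with a wild-type peak. The covered length of the window of 3 kb to each side was lower in this sense for 5 of 5, against 40.1% of 16058 genes, although DOGL2 and DOGL3 share that peak. Over the 7023 genes marked in wild type, the median difference in cover was 0 percentage points with quartiles of −7.08 and 6.11, and the window kept a median of 97.2% of its wild-type length. The members were taken with earlier results of these data known, so the shares describe them and test nothing.

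For the members, the window kept 59.5% of its wild-type length at DOG1, 57.8% at DOGL1, 60.1% at DOGL2, 74.5% at DOGL3 and 0 at DOGL4. The upstream 3 kb kept 0, 49.9%, 14.0%, 67.9% and 0 in the same order. The upstream side had lower cover in both val1val2 libraries than in both wild-type libraries for 5 of 5 members, against 45.8% of the 10639 genes with wild-type cover there, although the upstream sides of DOGL2 and DOGL3 hold the same peak. The position of the missing part was read from the lists after the counts above were known.

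The deposited GFP lists are permissive, and most genes have a summit nearby. All 5 members had a VAL1 summit in both lists within 3 kb to each side, as did 67.7% of all genes, and all 5 had a VAL2 summit there, as did 78.1%. Between 1 kb upstream of the start site and the gene's end, 4 of 5 had a VAL1 summit in both lists, all but DOGL1, against 38.2% of all genes. There 4 of 5 had a VAL2 summit, all but DOGL3, against 53.4%. Among the members the height of the highest summit had the same order at the top of all 3 lists, DOG1 first and DOGL4 next. With only summits of −log10 q of at least 2, DOG1 and DOGL4 alone had VAL1 summits in both lists, 2 of 5 members.

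RY cores lay within 100 bp of 6 of the 16 summits of VAL1 list 1 in the members' windows, against 32% of all summits of that list, and of 12 of 26 in VAL1 list 2, against 25.1%. Together this was 42.9% of 42 summits (95% Clopper-Pearson interval 27.7 to 59.0%, counting error only), with summits shared by DOGL2 and DOGL3 counted once. A site found in both lists was counted in each, such as that 397 and 394 bp upstream of DOG1. The 42 summits are therefore not independent, and the interval may be too narrow. In the VAL2 list it was 6 of 20, 30.0% (11.9 to 54.3%), against 18.9%. The VAL1 interval includes the share of all summits in list 1 and not that in list 2. Since it pools both lists, it decides neither comparison. The VAL2 interval includes the share of all summits in its list.

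The highest summits of DOG1 and DOGL4 had in common that they lay inside the peaks of both wild-type libraries and outside all val1val2 peaks. Among 2514 VAL1 summits that lay within 100 bp of each other in the 2 lists and inside wild-type peaks of both libraries, 936 (37.2%) lay outside the peaks of both val1val2 libraries. That position was thus a common one for VAL1 summits under the mark, and the comparison was chosen after the values of DOG1 and DOGL4 had been seen.

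The genes most like each member were found by the distance between the percentages of the window covered in the 4 H3K27me3 libraries, among genes with the same VAL1 and VAL2 calls. For DOG1, with 56.2% and 55.8% of its window covered in wild type and 32.2% and 34.3% in val1val2, they were AT4G21010, AT4G00920, LTP2, TPPI and ZFP5, at distances of 3.24 to 4.78 percentage points among 8493 candidates. For DOGL4, with 31.2% and 30.0% in wild type and none in val1val2, they were AT5G09910, DHAR3, AT3G14040, AT1G20540 and PHT4;1, at 0.303 to 1.73. For DOGL1 they were AT4G14000, AT1G17065, AT4G18630, AT1G64584 and HUB2, at 2.71 to 6.28. The window takes in the flanks, and HUB2 had no peak on the gene itself in any library. For DOGL2 they were IRX12, AT3G13433, GulLO3, AT1G24147 and CUC2, at 4.83 to 8.18, and for DOGL3 GATA14, AT2G32785, AT3G17080, AT2G20150 and AT2G32788, at 3.34 to 4.62.

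Of 7 genes for DOG1 partners and other clade A phosphatases, 2 were marked in both genotypes, close to the 25.6% of all genes marked in wild type, and 5 in neither, and AHG3, ABI1, HAB1 and HAB2 had no peak on the gene in any library. AHG1, the phosphatase DOG1 binds, had a cover of 41.6% and 37.8% in wild type against 79.4% and 47.2% in val1val2. RDO5, a phosphatase family member that promotes dormancy, had 56.2% and 56.0% in wild type against 33.2% and 46.8% in val1val2, and its peak was called shortened, 1918 and 1920 bp long in wild type and 612 and 864 bp in val1val2. Over the list the median difference in cover was 0. Most of its genes had no peak in any library, which fixes that median, so it says nothing of the marked genes.

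Among 7 known regulators of DOG1, the histone ubiquitin ligase genes HUB1 and HUB2, the elongation factor gene TFIIS, the methyltransferase gene ATXR7 and the demethylase genes LDL1 and LDL2 had no peak on the gene in any library. BZIP67, a seed transcription factor that activates DOG1, was the exception. Its cover was 37.7% and 39.0% in wild type against 26.1% and 17.1% in val1val2, and its peak of 2049 and 2085 bp measured 719 and 423 bp in the mutant. Of the 10 TGA bZIP genes, whose proteins share a domain with DOG1, 8 were unmarked and 2 were marked in both genotypes, again near that share. TGA9, which acts in anther development, had 67.8% and 66.8% in wild type against 42.2% and 33.9% in val1val2, with a peak of 4564 and 4498 bp that measured 1613 and 1644 bp in the mutant. TGA10, its partner in that role, had 79.1% and 77.4% against 70.6% and 53.9%. The median difference over these lists was 0 as well. Many genes of both lists had no peak in any library, so the median says little of the marked ones.

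Of 15 other dormancy and germination genes, 12 had a wild-type peak in both libraries, and 8 of those 12 had lower cover in both val1val2 libraries than in both wild-type ones, against 30.1% of all genes with a wild-type peak. Of the 11 marked in wild type 4 were lost, against 7.92% of all such genes, and 7 were kept. A further gene was gained and 3 were unmarked. The median difference in cover over the list was −10.6 percentage points against 0 over all genes. The list was chosen with earlier results of these data known, so these contrasts describe the listed genes and do not test dormancy genes as a class.

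MFT, a regulator of germination in the response to abscisic acid, went from a cover of 68.9% and 69.8% to no peak. CYP707A2, which breaks down abscisic acid during imbibition, had 76.6% and 71.4% in wild type against 18.4% and 13.5% in val1val2. NCED9, an abscisic acid synthesis gene of seeds, had 40.6% and 40.9% against 0 and 13.3%, and GA2OX2, which inactivates gibberellin, had 32.5% and 30.8% against 0 and 0. All 4 of these lost genes had VAL1 and VAL2 summits between 1 kb upstream and their end in every list. So had most of the 15 genes, 12 for VAL1 in both lists, against 38.2% of all genes. For VAL2 it was 13 of 15, against 53.4%. A link between summits and loss was not tested.

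Shortened peaks were found at NCED5, at GA3OX2, a gibberellin synthesis gene active in germination, and at CYP707A2, where the remnant lay under the 20% limit. At GA3OX2 the peak was 3571 and 3551 bp long in wild type and 580 and 443 bp in val1val2. In the other direction, PIF1, a light-labile repressor of germination, had no wild-type peak and covers of 44.3% and 44.7% in val1val2. NCED6, an abscisic acid synthesis gene of the endosperm, had 56.8% and 55.9% in wild type and 100% in both val1val2 libraries.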

How the data were processed

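The deposited files are peak lists that the authors made from each sample, per the submitters' processing notes with MACS2 on the TAIR10 build; the notes also name TopHat2 2.1.1, Cufflinks 2.2.1 and Cuffdiff without a role. MACS2's version, options and controls are not stated there. In the deposited lists, pileup is a signal of read coverage with no scaling described, fold enrichment a ratio to local background, and significance is given by the authors as −log10 of p and of q. A spreadsheet error had replaced both significance headers, which were read in MACS2 order; q read so never exceeded p. Fold enrichments and pileups of single peaks and summits are the authors' values.

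Genes came from the RefSeq annotation of TAIR10.1, and every peak end lay within its chromosome. Overlapping peaks of a library were merged, and cover, window length (3 kb to each side), longest peak and summits were computed per gene with Python 3.11.15, NumPy 2.4.6 and SciPy 1.17.1. Cover of 20% or more of a gene counted as marked. The interval and calling functions were tested on simulated peaks. Cores were sought on both strands, overlaps included. The sequence at the highest summits of DOG1 is not reported here. Groups were compared by an exact two-sided permutation test over 6 arrangements of the 4 libraries and by whether groups overlapped, read against all genes. Named genes are the members, protein-coding genes in their windows, the 4 lists (called genes and examples of each class) and the 5 genes nearest each member. The members and lists were chosen with earlier results of these data known. Alternatives were stricter q thresholds, equal numbers of peaks, other windows, cover limits and distances, joined peaks, left-out libraries and a replicate block.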

Additional observations from a re-analysis of the deposited data

How the results depend on the processing

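Of 56 alternative values none reversed. By the criteria used 50 were unchanged, meaning the same direction for the differences in cover and window length (whose size could still shift), within 1.5 times for a count, and within the spread for other values. Only peaks with −log10 q of at least 10 removed the val1val2 peaks of DOG1, whose −log10 q was 4.22 and 3.40. Under that limit the difference in cover was −66.4 points, in window length −4205 bp and in longest peak −4205 bp, DOG1 was called lost, and DOGL1 to DOGL4 were as before. With summits of −log10 q of at least 2, the members with a VAL1 summit in both lists were 2 (DOG1 and DOGL4), and at 10 or more 1 (DOG1), while those with a VAL2 summit at 10 or more were 2. The share of VAL1 summits with a core was 83.3% of 6 summits at 10 or more and 11.9% with the 8-base element CATGCATG. A window of 1 kb gave a difference of −1214.5 bp at DOG1 and 5 kb gave −1080 bp. The 1 kb window cuts the wild-type peak, which reached 2854 and 2780 bp upstream of the start site, where val1val2 had none. It also leaves out the val1val2 peaks over CIPK20 and CIPK19. The 3 kb window cuts those val1val2 peaks, and the 5 kb window holds them whole. The cause of the other shifts was not tested. Leaving out 1 library gave differences in cover from −13.9 to −6.65 points, the last without val1val2 replicate 2, in window length from −1922 to −1751 bp and in longest peak from −3107 to −2956 bp.

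Same-numbered libraries shared only a number (r = −0.00036 across 20213 genes, which are not independent, for deviations from the group mean). A paired comparison with the replicate block gave the same differences, −10.3 points and −1836.5 bp, and an exact sign-flip p = 0.5, the smallest it can give with 2 pairs. Depth is unknown, so a missing peak shows only that none was called.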
